A study of Homo sapiens with 12 samples.

Results

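The 2602 transcriptional units described here are those of 21874 that the authors placed in a non-coding class although the unit overlaps the GENCODE gene annotation. They were chosen by the deposited annotation alone: the class had to be eRNA, asRNA, conRNA, uaRNA or sincRNA, and the GENCODE mark of the unit had to be true. No measured value entered the choice here, although the units themselves had been segmented from TT-Seq signal. The class eRNA (enhancer RNA) held 447 of these units, asRNA (antisense RNA) 1028, conRNA (convergent RNA, started from within a gene against its direction) 178, uaRNA (upstream antisense RNA) 163 and sincRNA (short intergenic non-coding RNA) 786. The same 5 classes held another 8244 units outside GENCODE, and the mRNA class held 7810.

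Every library came from K562, a human line grown from chronic myelogenous leukaemia, so all values describe 1 cell line, and each group held 2 libraries. For 4 RNA groups the cells had taken up the uridine analogue 4-thiouridine (4sU) at 500 µM for 5 min. TT-Seq shears the RNA and then purifies the labelled fragments, 4sU-Seq purifies labelled RNA without shearing, Total RNA-Frag-Seq shears without purification, and Total RNA-Seq does neither. The RNA libraries are biological duplicates per the design text, and 4 chromatin immunoprecipitation (ChIP) libraries of RNA polymerase II (antibody N20, or one against the serine 2 phosphorylated form, S2P, after 7.5 min of crosslinking) carry no such statement, so their spread may be technical. The last 2 RNA groups are called sheared and unsheared total RNA from here on. The genome build is GRCh38.

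RNA labelled for a few minutes samples what polymerase is making, while total RNA holds what has accumulated. A transcript that is degraded fast is therefore better represented in labelled than in total RNA, and a stable messenger RNA the other way round. Enhancer, upstream antisense and antisense RNAs are known as mostly unspliced, unstable and nuclear. Many long non-coding genes begin beside a coding promoter and are transcribed away from it, and their symbols end in -DT (divergent transcript) or -AS (antisense).

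Reads in 200-base bins were summed over each unit on its own strand, and levels are library-scaled counts (CPM) per kb of unit. Binned totals ran from 25.9 M counts in unsheared total RNA replicate 2 to 71.3 M in TT-Seq replicate 2. Of 10 K562 markers 9 lay in a unit, and TAL1 and KLF1, both erythroid transcription factors, lay in units studied here. Of 10 markers of other cell types 4 lay in a unit and 0 in a unit studied here. In bulk samples such as these, fewer cells with an RNA and less of it per cell cannot be told apart.

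Promoter bases of 6 matched units are shown here because each is the most highly transcribed matched unit of its class, plus the asRNA unit with the highest ratio of TT-Seq to sheared total RNA. Each run is the 150 bases before the RefSeq start on the gene's own strand, 5′ to 3′, from RefSeq GRCh38.p14, with matches to TATAAA or CCAAT or GGGCGG on either strand in capitals. Unit start minus RefSeq start ran from -2765 bases (EEF1A1) to -290 (BMP2K-DT), so all 6 windows lie inside their units and not before the unit starts.
CITED2 (eRNA, chr6:139374649-139374798, minus): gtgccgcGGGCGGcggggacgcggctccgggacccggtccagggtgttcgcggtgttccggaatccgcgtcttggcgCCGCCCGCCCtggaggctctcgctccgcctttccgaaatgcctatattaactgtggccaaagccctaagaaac
EEF1A1 (asRNA, chr6:73521033-73521182, minus): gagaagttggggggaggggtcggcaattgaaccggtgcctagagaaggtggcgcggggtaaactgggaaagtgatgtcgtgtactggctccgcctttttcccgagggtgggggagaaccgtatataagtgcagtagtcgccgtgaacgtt
BMP2K-DT (asRNA, chr4:78775971-78776120, minus): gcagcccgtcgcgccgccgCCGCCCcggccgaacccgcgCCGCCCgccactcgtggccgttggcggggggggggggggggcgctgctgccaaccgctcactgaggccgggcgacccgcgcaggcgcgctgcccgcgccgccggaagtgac
RPL4 (conRNA, chr15:66504856-66505005, minus): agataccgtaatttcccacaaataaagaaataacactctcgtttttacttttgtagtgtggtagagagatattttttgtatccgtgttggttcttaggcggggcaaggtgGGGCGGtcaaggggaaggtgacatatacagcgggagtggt
HINT1 (uaRNA, chr5:131165257-131165406, minus): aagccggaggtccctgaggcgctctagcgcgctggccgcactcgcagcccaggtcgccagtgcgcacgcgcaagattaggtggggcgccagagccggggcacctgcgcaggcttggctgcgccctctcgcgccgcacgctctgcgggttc
TXNIP (sincRNA, chr1:145996580-145996729, minus): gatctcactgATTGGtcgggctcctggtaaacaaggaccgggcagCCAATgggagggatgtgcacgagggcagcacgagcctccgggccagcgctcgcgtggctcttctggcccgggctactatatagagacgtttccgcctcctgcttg
Of these 6 windows, 0 hold the letters TATAAA, which says only that those letters are not in these bases. The BMP2K-DT window holds 27 CpG pairs at 84% G and C, against 6 CpG at 44% in that of RPL4.

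A miRNA hairpin lay on the same strand inside 67 of the units, 81 hairpins in all, and RefSeq mature sequences were at hand for 77 hairpins in 64 units. The mature miRNAs below are shown because they place well known miRNA genes inside units of a non-coding class; they were picked after values had been seen. Sequences are 5′ to 3′ with the seed, bases 2 to 8, in capitals, and they are ordered so that miRNAs with the same seed stand together.
hsa-miR-29a-3p (LINC-PINT unit, asRNA): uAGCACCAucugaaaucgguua
hsa-miR-29b-3p (LINC-PINT unit, asRNA): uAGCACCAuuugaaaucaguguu
hsa-miR-15a-5p (DLEU2 unit, asRNA): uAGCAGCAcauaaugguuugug
hsa-miR-16-5p (DLEU2 unit, asRNA): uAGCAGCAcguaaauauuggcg
hsa-miR-181a-5p (asRNA): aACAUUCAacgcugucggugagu
hsa-miR-181b-5p (asRNA): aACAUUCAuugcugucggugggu
hsa-miR-10a-5p (eRNA unit over the HOXB genes): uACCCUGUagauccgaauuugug
hsa-miR-223-3p (eRNA): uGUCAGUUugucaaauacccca
hsa-let-7e-5p (SPACA6 unit, asRNA): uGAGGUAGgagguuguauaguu
hsa-miR-125a-5p (SPACA6 unit, asRNA): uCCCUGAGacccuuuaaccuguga
The reads count the primary transcript around the hairpin, not the mature miRNA.

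Most of the units held or touched a known gene, which the rule itself asks for through the GENCODE mark. The 5 classes differed in which kind. A unit was matched to a gene where both spans shared at least 0.5 of their union on the same strand, or where 80% or more of the gene lay in the unit and the 2 starts were at most 3 kb apart. By this rule 708 units were matched, 321 to a protein-coding gene and 387 to a long non-coding gene. Another 702 overlapped a coding gene on their strand without a match, 313 overlapped a long non-coding gene without a match, 596 overlapped a gene whose strand the tables do not give, 142 met a gene on the other strand only, and 141 met no RefSeq gene. Outside GENCODE, 10 of 8244 units were matched to a coding gene and 3180 met no gene. The GENCODE mark separates units by gene overlap, so this contrast is largely set by the rule.

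The asRNA class had the most long non-coding matches, 294 of its 1028 units (28.6%), and 151 coding matches (14.7%). The uaRNA class had the highest share of coding matches, 32 of 163 (19.6%), and conRNA had 23 of 178 (12.9%). The sincRNA class had 96 coding matches of 786 (12.2%), and a further 332 of its units (42.2%) overlapped a coding gene without a match. The eRNA class had the lowest share of matched units, with 19 coding (4.25%) and 15 long non-coding (3.36%), and 66 of its units (14.8%) met no RefSeq gene. The plot of class contents shows these shares beside those outside GENCODE.

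**Figure D1:**
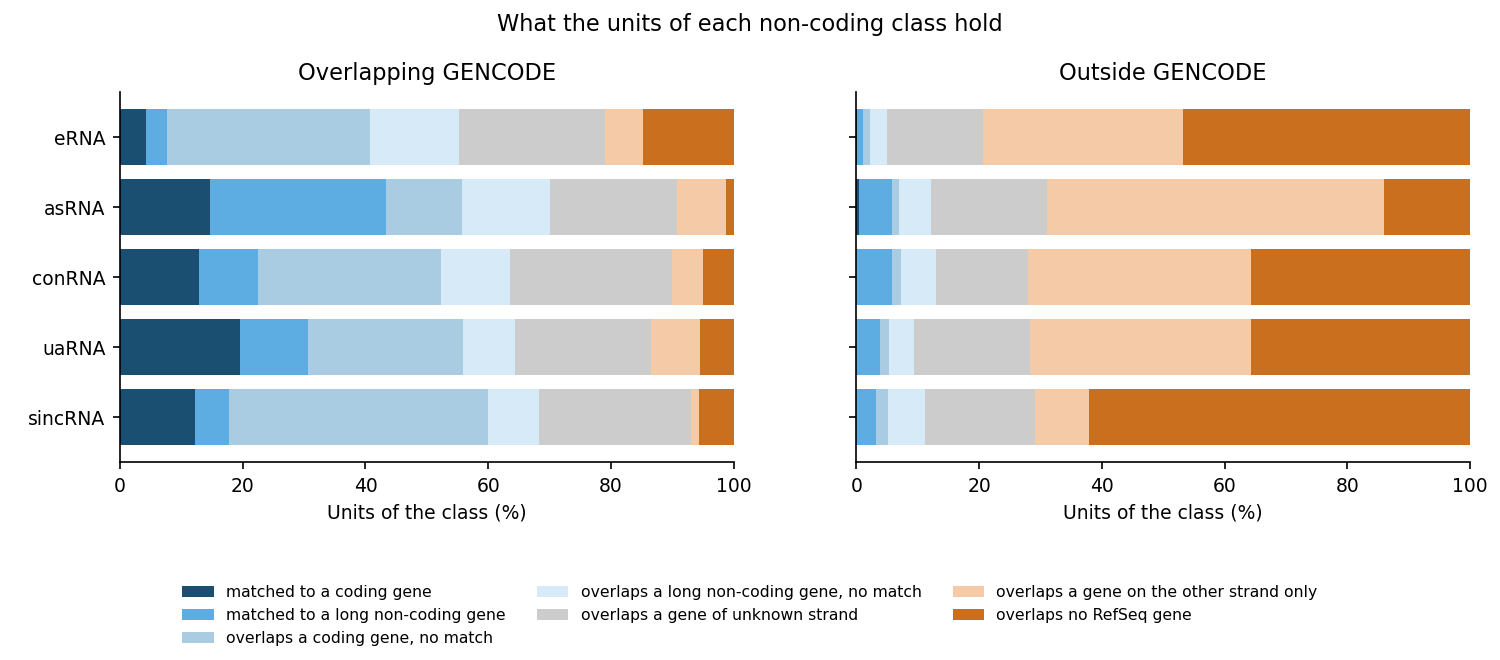
Share of the units of each class (horizontal axis, percent) by what the unit holds in RefSeq GRCh38.p14, for units that overlap GENCODE (left) and units of the same classes outside it (right). Coding matches (dark blue) make up 4.25% of eRNA to 19.6% of uaRNA units on the left, and at most 0.357% of a class on the right.

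Among the 387 long non-coding matches, 155 had names of antisense genes, 95 of divergent transcripts, 19 of LINC genes (intergenic), 8 of host genes of small RNAs and 110 other names. Antisense names fell in asRNA in 145 of 155 cases and divergent names in 78 of 95. A unit's class and a gene's name both depend on the position of neighbouring genes.

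The units lay on the minus strand far more often than on the plus strand. Of the 2602 units 1768 (67.9%) were on the minus strand, with 60.9% of eRNA, 65.9% of asRNA, 75.3% of conRNA, 78.5% of uaRNA and 70.9% of sincRNA units. The same classes outside GENCODE held 50.8% on the minus strand and the mRNA class 49.4%. Units that had been left without a class went the other way, with 863 of 2655 (32.5%) on the minus strand.

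The imbalance was marked where the unit carried a coding gene. Of the 321 coding matches 292 were on the minus strand and 29 on the plus strand, against 162 and 482 among units without a class and 2867 and 2985 in the mRNA class. Among the minus-strand matches the gene filled under 50% of the unit in 266 of 292, and among plus-strand units without a class in 421 of 482. In the mRNA class it did so in 69 units on either strand. Among minus-strand units without a class it did so in 145 of 162, and among plus-strand matches in 10 of 29. Units with such a short gene on the minus strand thus lay in a non-coding class (266), without a class (145) or in the mRNA class (69). On the plus strand these counts were 10, 421 and 69. The cause of this split was not tested.

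**Figure D2:**
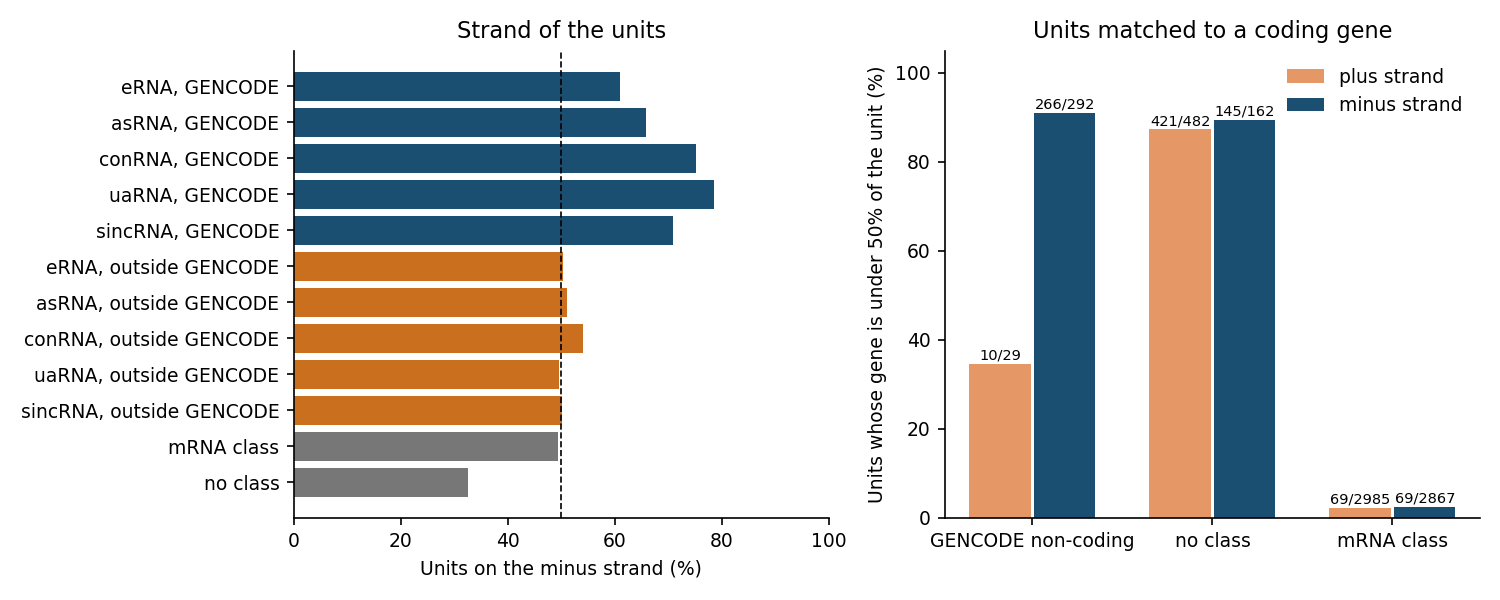
Left, percent of units on the minus strand by class, with a dashed line at 50%. Right, percent of units matched to a coding gene in which the gene fills under 50% of the unit, by strand, with the counts above each bar; 266 of 292 minus-strand units in non-coding classes and 69 of 2867 in the mRNA class are of this kind.

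The matched coding units ran far past the gene. They reached a median of 13.9 kb beyond the gene's 3′ end (quartiles 6.91 and 28.2 kb), and 311 of 321 reached more than 1 kb beyond it. The gene itself made up a median of 36.8% of the unit. Among units that overlapped a coding gene without a match, 237 covered its first part from the gene's start, of which 217 were on the minus strand, 260 lay inside it (median 3.30% of the gene covered), 101 covered its last part and ran on, and 66 covered the whole gene but started over 3 kb away. Counting genes whose strand the tables hold, at least 2 whole coding genes lay on the strand of 77 units, and up to 6 in one of them.

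The RNA past the gene end behaved unlike the RNA of the gene in the same unit. In 147 coding matches the stretch past the gene was free of other units and at least 1 kb long. There the level past the gene was a median of 16.9% and 18.5% of the level in the gene in the 2 TT-Seq libraries, 7.42% and 7.36% in 4sU-Seq, 3.67% and 4.00% in sheared total RNA and 3.20% in both unsheared total RNA libraries. The libraries of purified RNA lay above the others with no overlap, and TT-Seq lay above 4sU-Seq. The log2 ratio of TT-Seq to sheared total RNA had a median of -0.97 in the gene and 1.19 past it, and it was higher past the gene in 134 of 147 units. In the mRNA class, whose units are mostly filled by their gene, the matching values over 3405 units were 26.1% and 25.4% in TT-Seq and 6.36% and 6.65% in sheared total RNA. The log2 ratio in that class had a median of -0.33 in the gene and 1.56 past it, and was higher past it in 3197 of 3366 units. Units without a class had 16.9% and 17.8% in TT-Seq, and log2 ratios of -1.08 and 1.15 (higher past the gene in 243 of 259). The contrast is therefore not particular to the units studied here. The gene and the stretch past it share a unit and its libraries, and no test was run on them. The units were segmented from TT-Seq signal, so a stretch past a gene lay in a unit only where TT-Seq had signal. Total RNA faced no such condition, so part of the difference may be built into the units.

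**Figure D3:**
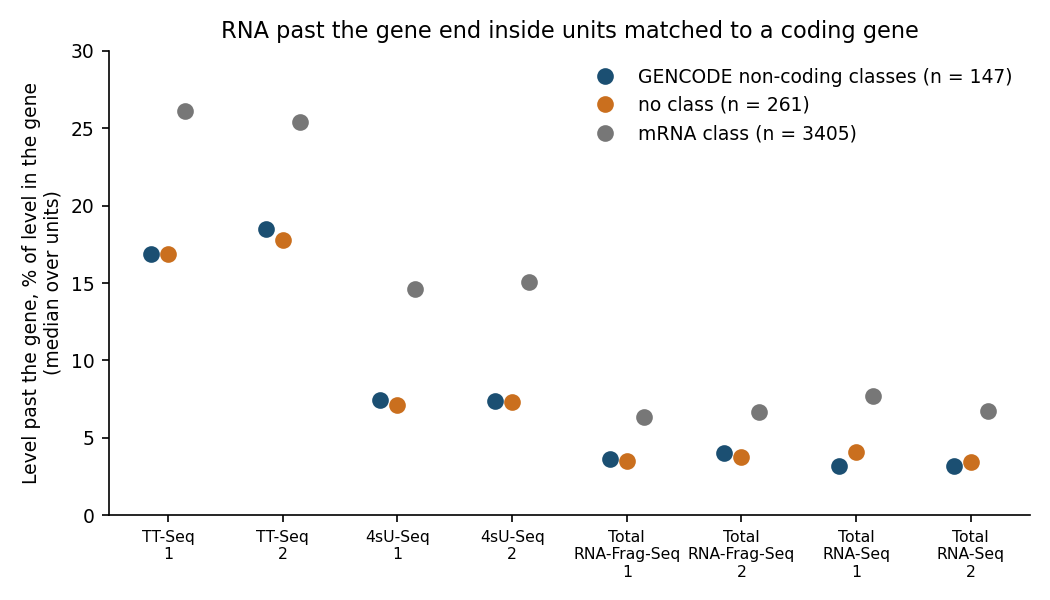
Level past the gene end as a percent of the level in the gene (vertical axis, median over units), in each of the 8 RNA libraries, for units matched to a coding gene in the non-coding classes, without a class, and in the mRNA class. In the non-coding classes the TT-Seq points lie at 16.9 and 18.5 and those of unsheared total RNA at 3.20.

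TXNIP, a negative regulator of thioredoxin, shows the pattern within one sincRNA unit (chr1:145983647-145997353, minus, 13.7 kb). Its gene measured 66.8 and 60.4 CPM per kb in TT-Seq and 48.2 and 36.3 in sheared total RNA. The 8.6 kb past it measured 0.895 and 0.868 in TT-Seq, 0.458 and 0.453 with 4sU-Seq, and 0.0777 and 0.119 in sheared total RNA. Both parts were higher in TT-Seq than in sheared total RNA, and the part past the gene by the larger ratio. For RPS16, a ribosomal protein gene in an asRNA unit, the gene measured 48.3 and 42.0 in TT-Seq against 153 and 123 in sheared total RNA. The 3.8 kb past it measured 1.13 and 1.24 against 0.208 and 0.197, so gene and tail went in opposite directions.

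Coding members were lower and gene-free members higher in TT-Seq than in sheared total RNA. Of the 2602 units 2420 passed the filter on low counts: 312 eRNA, 1018 asRNA, 177 conRNA, 156 uaRNA and 757 sincRNA. At an edgeR adjusted p under 0.05, 974 were higher in TT-Seq than in sheared total RNA and 890 lower, which is 40.2% and 36.8% of those tested. Over all 19332 units tested, 43.2% were higher and 37.8% lower, so the shares among these units were near the background. The 2 groups did not overlap in 2142 units (88.5%), against 91.4% of all units. The median log2 fold change was 0.06, against 0.09 over all units, 1.95 in the same classes outside GENCODE and -0.34 in the mRNA class. Without TMM scaling all units shift by a median of 0.35, and 1303 of these units were then higher and 610 lower.

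Among the units tested, medians lay further apart by content than by class. Coding matches had 31 higher and 236 lower of 321 (median -0.67, or -0.32 without TMM scaling). Long non-coding matches had 174 higher and 130 lower of 386, with a median of 0.14. Units with a gene on the other strand only had 93 higher and 10 lower of 130 (median 1.09), and units with no RefSeq gene had 76 higher and 12 lower of 107 (median 1.46). Divergent names had 56 higher and 25 lower of 94 (median 0.52), and antisense names 64 and 56 of 155 (median 0.01). The filter passed low units mainly through the libraries in which they are high, so these counts are descriptions of the units tested. Units also needed TT-Seq signal to be segmented but none in total RNA, so part of the higher values may be built into the units. The 141 units with no RefSeq gene had a median length of 2041 bases. No cut at a mean of at least 1 CPM is given here for that group.

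By class, eRNA had 194 higher and 66 lower (median 1.03), asRNA 434 and 361 (0.12), conRNA 66 and 74 (-0.13), uaRNA 55 and 58 (0.00) and sincRNA 225 and 331 (-0.14). The medians of conRNA and sincRNA turn positive without TMM scaling, at 0.22 and 0.20. The eRNA median rests on low units: among the 165 eRNA units with a mean of at least 1 CPM, 66 were higher and 63 lower (median 0.01). When units of that level alone were scaled and fitted again, 78 were higher and 43 lower (median 0.22). Outside GENCODE the median of eRNA was 2.36, and those of the other classes lay between 1.75 (sincRNA) and 1.84 (uaRNA). Within each class the coding matches had a negative median, from -0.87 in conRNA to -0.48 in eRNA, and this sign held in all 5 classes under the TMM scaling used. Of the 66 eRNA units with no RefSeq gene 38 were tested, of which 34 were higher and 0 lower (median 2.20). The limits of filter, level and segmentation given above hold for them too.

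**Figure D4:**
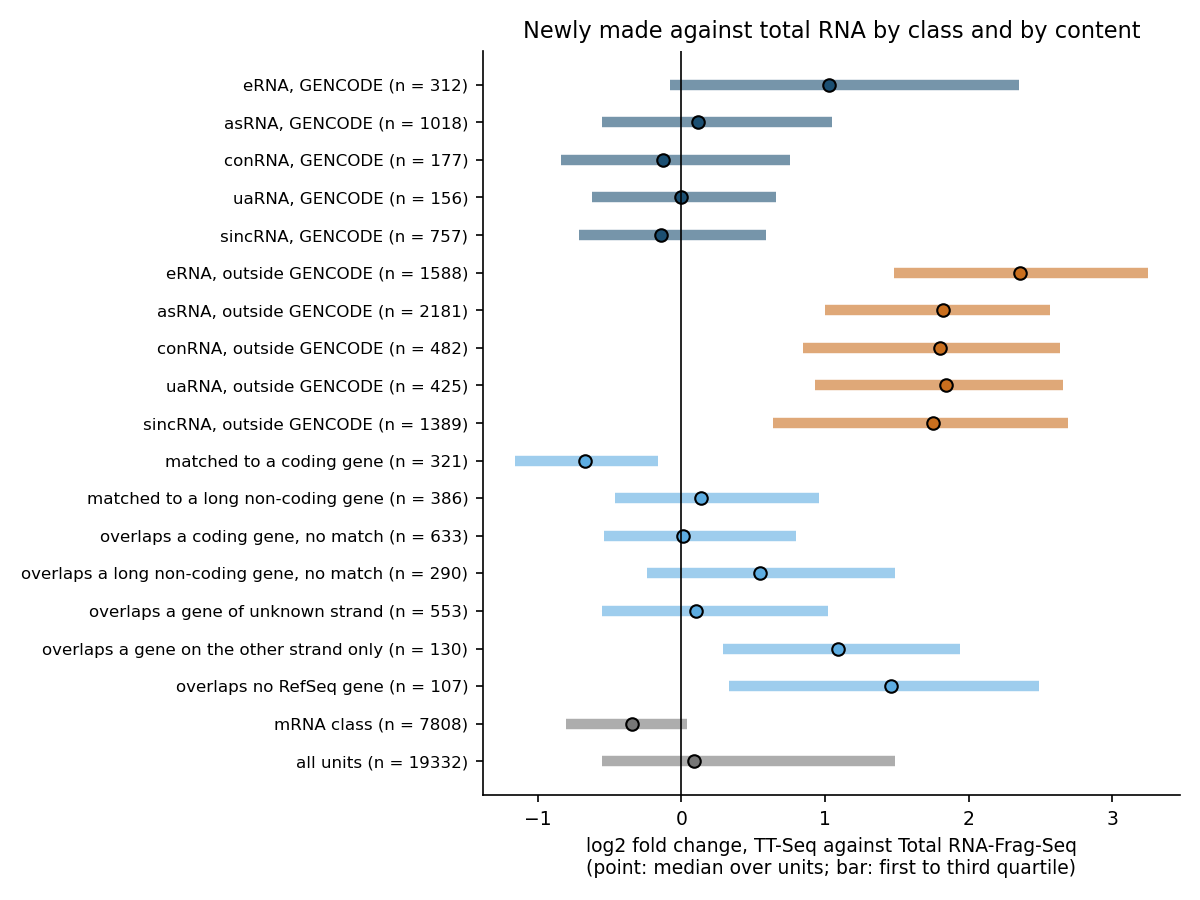
Log2 fold change of TT-Seq against sheared total RNA (horizontal axis) by class inside and outside GENCODE and by content of the units inside; points are medians over units and bars run from the first to the third quartile. Units matched to a coding gene lie lowest at -0.67 and units with no RefSeq gene highest of the content groups at 1.46; without TMM scaling all units shift by a median of 0.35.

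Levels differed by content as well. The median over the 2602 units was 0.424 and 0.427 CPM per kb in TT-Seq, and 0.331 and 0.338 in sheared total RNA. Outside GENCODE the TT-Seq libraries had 0.3 and 0.312, and those of sheared total RNA 0.0723 and 0.0770. Coding matches had 1.20 and 1.17 in TT-Seq and 1.90 and 1.79 in sheared total RNA, and units with no gene 0.302 and 0.298 against 0.0886 and 0.0983. The sets were closer in TT-Seq than in total RNA. A unit needed TT-Seq signal to be segmented but none in total RNA, so this may follow from how units were defined. Together the 2602 units took 7.36% and 7.32% of the unit counts in TT-Seq and 9.06% and 9.12% in unsheared total RNA.

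Genes said below to be spanned by a unit lie whole within it, on either strand. In the eRNA class the most highly transcribed matched units were CITED2, LYL1 and BTG2. CITED2 (chr6:139369687-139376678, minus, gene 40.6% of the unit) encodes a transcriptional co-regulator that binds CBP and p300. Its unit measured 8.90 and 7.86 CPM per kb in TT-Seq, 9.86 and 11.4 with 4sU-Seq, 9.36 and 8.61 in sheared total RNA and 10.6 and 11.2 in unsheared total RNA. The TT-Seq and sheared total RNA libraries overlapped, and the log2 fold change of -0.10 (SE 0.08) did not pass the test (adjusted p = 0.248). Where the bins shared with another unit were left out, the value was 2.84, and without TMM scaling 0.24. Here and below, leaving out shared bins drops those covered by another unit on either strand, so parts of the gene itself can be lost.

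LYL1 (chr19:13094222-13102849, minus), a blood transcription factor related to TAL1, measured 6.52 and 6.40 CPM per kb in TT-Seq, 9.05 and 10.7 with 4sU-Seq, 11.3 and 10.9 in sheared total RNA and 14.1 and 16.1 in unsheared total RNA. TT-Seq was below every other library, with a log2 fold change of -0.78 (SE 0.08, adjusted p = 2.23e-07) against sheared total RNA. TAL1 itself, a master regulator of blood formation (chr1:47191424-47232227, minus, gene 39.1% of the unit) was also an eRNA unit, at 1.02 and 1.04 in TT-Seq and 2.12 and 1.98 in sheared total RNA. Its groups did not overlap, at a log2 fold change of -0.99 (SE 0.06, adjusted p = 5.99e-10). BTG2 (chr1:203303199-203316517, plus), an antiproliferative gene, measured 5.85 and 5.47 in TT-Seq against 4.82 and 4.01 in sheared total RNA (log2 fold change 0.36, SE 0.08, adjusted p = 0.000504).

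An unmatched eRNA unit of 95.2 kb (chr17:48536387-48631582, minus) spanned 8 coding genes, HOXB2 to HOXB9, with MIR10A among them. The HOXB genes encode homeobox transcription factors of the body axis and of blood progenitors. The unit measured 2.19 and 2.34 CPM per kb in TT-Seq, 3.99 and 4.50 with 4sU-Seq, 4.63 and 4.57 in sheared total RNA and 4.74 and 4.92 in unsheared total RNA. TT-Seq was the lowest group, with a log2 fold change of -1.02 (SE 0.06, adjusted p = 2.29e-10) against sheared total RNA. An asRNA unit without a match (chr19:12870682-12890809, minus) spans KLF1, an activator of globin genes, and DNASE2. It measured 1.86 and 1.71 in TT-Seq and 5.23 and 4.90 in sheared total RNA (log2 fold change -1.50, SE 0.10, adjusted p = 1.42e-08). Both units were singled out after their values had been seen.

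Past these, the lowest eRNA log2 fold changes with a name were PNMA8A (-2.01, SE 0.08), the depalmitoylase gene ABHD17A (-1.38, SE 0.09) and UBALD1 (-1.31, SE 0.15), all 3 coding. The highest were the non-coding LINC01816 (1.47, SE 0.19), LOC729291 (1.18, SE 0.13) and LINC02695 (1.15, SE 0.25). LINC01816 measured 0.696 and 0.802 CPM per kb in TT-Seq and 0.235 and 0.314 in sheared total RNA, without overlap. PNMA8A went the other way, at 0.642 and 0.664 in TT-Seq and 2.73 and 2.53 in sheared total RNA.

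In the asRNA class the top levels belonged to genes of the translation machinery on the minus strand. EEF1A1 (chr6:73508334-73523797), the elongation factor that brings aminoacyl-tRNA to the ribosome, measured 21.3 and 20.5 CPM per kb in TT-Seq, 51.4 and 53.4 with 4sU-Seq, 106 and 92.5 in sheared total RNA and 110 and 108 in unsheared total RNA. The groups were ordered from TT-Seq to total RNA, and the unit was 4.73-fold lower in TT-Seq than in sheared total RNA (log2 fold change -2.24, SE 0.06, adjusted p = 1.83e-13). RPS16 and RPS6, proteins of the small ribosomal subunit, were 2.95-fold and 2.88-fold lower. EEF1A1 and ribosomal protein genes have near-identical processed copies, so their split of reads is uncertain. Counted only in bins of no other unit, the EEF1A1 unit had a log2 fold change of 3.03.

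The lowest asRNA values belonged to CFL1, H1-5 and MARCKSL1. CFL1 (chr11:65848781-65860352, minus) encodes cofilin, which severs actin filaments. It measured 4.25 and 4.48 CPM per kb in TT-Seq, 14.7 and 17.3 with 4sU-Seq and 32.7 and 28.1 in sheared total RNA, a log2 fold change of -2.80 (SE 0.09, adjusted p = 1.86e-11). The linker histone H1-5 (chr6:27862003-27867577, minus; the unit also spans H2AC16) measured 2.47 and 2.62 in TT-Seq and 2.21 and 2.52 with 4sU-Seq, against 15.6 and 13 in sheared total RNA and 17.5 and 16.6 in unsheared total RNA. Both groups of labelled RNA were low for H1-5, whereas 4sU-Seq lay between TT-Seq and total RNA for CFL1. The same held for the asRNA unit of H3C7, which also spans H4C7 and H2BC9, at 1.91 and 2.11 in TT-Seq, 1.59 and 2.05 with 4sU-Seq and 6.18 and 7.39 in sheared total RNA. On bins of no other unit the H3C7 unit had a log2 fold change of 0.39 against sheared total RNA (adjusted p = 0.202). Histone genes are near-identical copies, so these counts are uncertain.

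The highest asRNA values were all non-coding genes beside a coding promoter. BMP2K-DT (chr4:78772258-78776260, minus, 4.00 kb), the divergent transcript of the kinase gene BMP2K, measured 1.48 and 1.36 CPM per kb in TT-Seq, 0.868 and 0.898 with 4sU-Seq, 0.144 and 0.128 in sheared total RNA and 0.273 and 0.175 in unsheared total RNA. It was 10.3-fold higher in TT-Seq than in sheared total RNA (log2 fold change 3.36, SE 0.21, adjusted p = 5.99e-10). MYL12-AS1 (chr18:3257854-3262023, minus) followed at 1.28 and 1.12 in TT-Seq and 0.167 and 0.0757 in sheared total RNA (log2 fold change 3.23, SE 0.30). MAGOH-DT (chr1:53238698-53242751, plus) stood at 0.633 and 0.603 against 0.0524 and 0.136 (log2 fold change 2.78, SE 0.29). These 3 units had no overlap between the groups. Their counts in sheared total RNA were low, at 19 and 13 for BMP2K-DT, 23 and 8 for MYL12-AS1 and 7 and 14 for MAGOH-DT. The size of these ratios is therefore uncertain.

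In the conRNA class the top level was that of RPL4 (chr15:66482746-66505349, minus, 22.6 kb), a protein of the large ribosomal subunit. Its unit also spans SNAPC5, MIR4512 and 4 small nucleolar RNA genes. It measured 9.99 and 9.03 CPM per kb in TT-Seq, 15.3 and 16.5 with 4sU-Seq and 24.1 and 19.8 in sheared total RNA (log2 fold change -1.21, SE 0.08, adjusted p = 5.17e-08). RBMX, an RNA-binding protein of splicing, had a gene of 13.9% of its unit, at 4.95 and 4.91 against 5.98 and 5.80. The log2 fold change of RBMX (-0.26) was small, turned to 0.09 without TMM scaling and was no longer called with a mean of at least 1 CPM (-0.04, adjusted p = 0.381).

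The lowest conRNA values were BST2 (-1.77, SE 0.09), which encodes the antiviral protein tetherin, NHP2 (-1.56, SE 0.09), a protein of box H/ACA small nucleolar particles, and CTDNEP1 (-1.49, SE 0.07), a phosphatase of the nuclear envelope. The CTDNEP1 unit of 69.4 kb spans 6 whole coding genes on either strand, 5 of them on its own, among them DLG4, DVL2 and GABARAP. BST2 measured 1.20 and 1.43 CPM per kb in TT-Seq and 4.45 and 4.51 in sheared total RNA. The highest were EIF5-DT (2.13, SE 0.21), LOC107986011 (1.55, SE 0.24) and SUGT1-DT (1.39, SE 0.15), all non-coding. EIF5-DT measured 0.858 and 0.944 in TT-Seq and 0.238 and 0.165 in sheared total RNA. On bins of no other unit NHP2 had 3.08, and SUGT1-DT had 0.32 (adjusted p = 0.548).

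In the uaRNA class HINT1, a nucleotide hydrolase gene (chr5:131151435-131166086, minus), had the top level, at 4.52 and 4.01 CPM per kb in TT-Seq, 8.57 and 9.52 with 4sU-Seq and 9.79 and 7.40 in sheared total RNA (log2 fold change -1.01, SE 0.12, adjusted p = 1.59e-05). ZSCAN16-AS1 (chr6:28102044-28137771, minus) came next and was higher in TT-Seq, at 3.26 and 3.27 against 1.83 and 1.93 (log2 fold change 0.80, SE 0.06). PPP1R15B, which directs a phosphatase to the translation factor eIF2, was lower, at 3.32 and 3.08 against 4.85 and 4.82 (log2 fold change -0.60, SE 0.06). On bins of no other unit its value was -0.09 (adjusted p = 0.275).

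The lowest uaRNA value was that of the unit matched to LOC105378179 (chr14:49858347-49868151, minus), which also spans RN7SL2, a gene of the abundant RNA of the signal recognition particle. It measured 2.63 and 3.64 CPM per kb in TT-Seq, 3.37 and 4.37 with 4sU-Seq, 16.7 and 19.4 in sheared total RNA and 22.1 and 23.1 in unsheared total RNA. Total RNA was far above labelled RNA (log2 fold change -2.52, SE 0.17, adjusted p = 1.52e-06), and on bins of no other unit the value was 0.98. The strand of RN7SL2 is not in the tables used, and copies of it elsewhere make its counts uncertain. NDUFB11 (-2.31, SE 0.13), a subunit of respiratory complex I, and KDELR1 (-2.01, SE 0.10), a receptor that returns proteins to the endoplasmic reticulum, were next. The highest were CD2AP-DT (1.70, SE 0.16), LOC124901070 (1.15, SE 0.22) and NFE2L1-DT (0.87, SE 0.12).

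In the sincRNA class TXNIP had the top level, at 21.7 and 19.1 CPM per kb in TT-Seq, 19.8 and 18.1 with 4sU-Seq, 15.7 and 11.7 in sheared total RNA and 15.5 and 14.6 in unsheared total RNA. It was the one coding unit among the top 3 of its class that was higher in TT-Seq (log2 fold change 0.57, SE 0.13, adjusted p = 0.00255). H3-3B, a replication-independent histone H3, measured 18.3 and 15.8 in TT-Seq and 43.5 and 32.8 in sheared total RNA (log2 fold change -1.17, SE 0.12). RPL14 (plus strand) measured 6.25 and 5.66 against 19.2 and 16.7 (log2 fold change -1.59, SE 0.07). Both have processed copies elsewhere, and H3-3B had 0.62 on bins of no other unit.

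CXCL3 (chr4:74032762-74039496, minus), a chemokine that attracts neutrophils, was the coding exception among the highest sincRNA values. It measured 3.17 and 3.24 CPM per kb in TT-Seq, 2.03 and 2.38 with 4sU-Seq, 0.757 and 0.674 in sheared total RNA and 0.673 and 0.866 in unsheared total RNA. Every labelled library was above every total library, and TT-Seq was 4.45-fold above sheared total RNA (log2 fold change 2.15, SE 0.12, adjusted p = 2.51e-10). The gene alone measured 7.46 and 7.37 in TT-Seq and 2.03 and 1.72 in sheared total RNA, so gene and tail were both higher. LOC124906053 (2.32, SE 0.20) and LINC01063 (2.15, SE 0.16) were the other two. LMF2 (-2.63, SE 0.11), a maturation factor of lipases, SF3B5 (-2.15, SE 0.07), a splicing factor, and ORMDL3 (-1.79, SE 0.08), a regulator of sphingolipid synthesis whose unit also spans GSDMB, were lowest. The SF3B5 gene fills 3.73% of its unit, which had 1.77 on bins of no other unit.

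**Figure D5:**
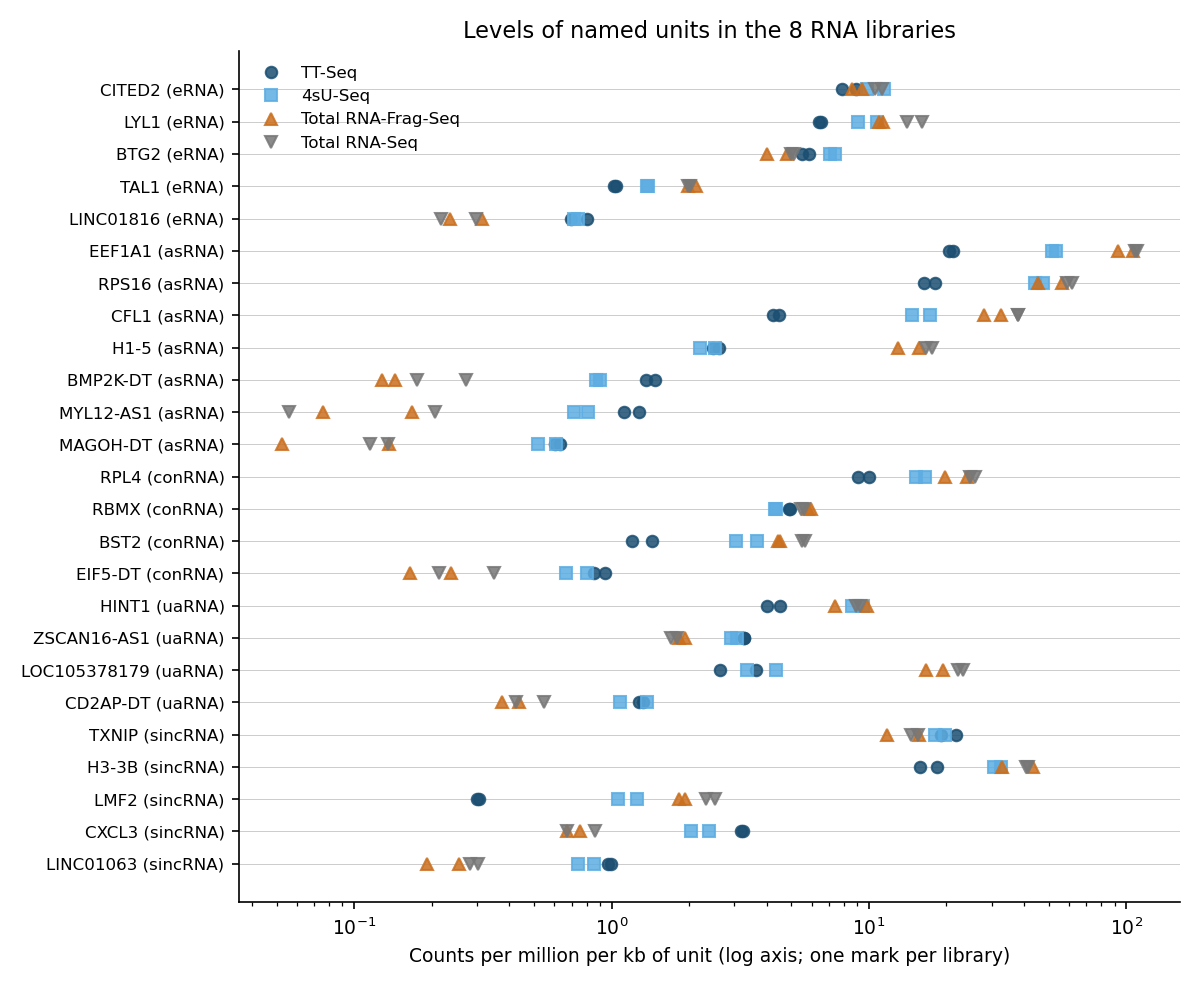
Level of 25 named units (horizontal log axis, CPM per kb of unit) with 1 mark for each of the 8 RNA libraries. Coding units such as CFL1 and EEF1A1 lie lowest in TT-Seq, and divergent or antisense units such as BMP2K-DT and MYL12-AS1 lie highest in TT-Seq and 4sU-Seq.

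Purification was also compared without shearing. Against unsheared total RNA, 1040 units were higher and 533 lower in 4sU-Seq (median 0.28), where 40.2% of all units tested were higher and 28.2% lower. Higher calls made up 66.1% of the calls, 55.3% with DESeq2 size factors and 77.5% without TMM scaling. A DESeq2 test called 636 higher and 621 lower, and without unsheared total RNA replicate 1 edgeR called 638 higher. Coding matches had 32 higher and 208 lower of 321, and long non-coding matches 202 higher and 58 lower of 386. The lowest named units were H1-5 (-2.85, SE 0.10), the LOC105378179 unit (-2.55, SE 0.17) and H3C7 (-2.27, SE 0.12). On bins of no other unit the LOC105378179 unit had 0.56 (adjusted p = 0.247) and H3C7 -0.25 (adjusted p = 0.492), and neither was called. The highest were MYL12-AS1 (2.47, SE 0.34), MAGOH-DT (2.15, SE 0.30) and NUP133-DT (2.09, SE 0.31). This comparison uses other libraries than that of TT-Seq with sheared total RNA.

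Between the purified groups, more units were lower than higher in TT-Seq. Of 2420 units 329 were higher and 822 lower in TT-Seq than in 4sU-Seq (median -0.09), where 19.8% of all units were higher and 28.6% lower. Without TT-Seq replicate 1 the higher units numbered 183. Coding matches had 47 higher and 192 lower of 321. RTL8A, a small gene derived from a retrotransposon, had the lowest named value at -2.03 (SE 0.09), with 1.54 CPM per kb in both TT-Seq libraries against 5.74 and 6.83 in 4sU-Seq. TIMM17B (-1.95, SE 0.16), part of the mitochondrial import channel, and LMF2 (-1.93, SE 0.11) followed. The highest were LOC124909347 (0.86, SE 0.16), IL6ST-DT (0.73, SE 0.12) and BMP2K-DT (0.68, SE 0.14). BMP2K-DT was no longer called on bins of no other unit (1.04, adjusted p = 0.0631).

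Shearing of total RNA changed fewer units, and its direction followed the scaling. Of 2420 units 369 were higher and 161 lower in sheared total RNA than in unsheared total RNA (median -0.02), where 16.6% of all units were higher and 5.52% lower. Higher calls made up 69.6% of the calls, against 45.4% with DESeq2 size factors and 37.1% without TMM scaling. Long asRNA units led the named increases: the unit of LOC101930071 (0.92, SE 0.08), which also spans LIPE and CXCL17, SPRY4-AS1 (0.79, SE 0.08; 107 kb) and DLGAP4-AS1 (0.72, SE 0.09), whose unit also spans MYL9. HNRNPD-DT (-0.72, SE 0.18), LOC124901324 (-0.68, SE 0.23) and SOD2-OT1 (-0.65, SE 0.22) were lowest. On bins of no other unit HNRNPD-DT had -0.49 and was no longer called (adjusted p = 0.0965). The calls of the other two are lost when single libraries are left out, with adjusted p up to 0.157 for LOC124901324 and 0.16 for SOD2-OT1. With unsheared total RNA replicate 1 left out 132 units were higher, and with replicate 2 left out 50 were lower. The count of higher units was 163 without sheared total RNA replicate 2 and 226 without either TT-Seq library, where 321 were lower. The cause was not tested.

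Units with miRNA genes did not share a direction. The MIR223 unit (chrX:65997647-66036483, eRNA), which holds MIR223HG and a miRNA typical of myeloid cells, measured 6.52 and 6.40 CPM per kb in TT-Seq and 5.88 and 5.07 in sheared total RNA (log2 fold change 0.24, SE 0.08, adjusted p = 0.0127). LINC-PINT, with MIR29A and MIR29B1, measured 1.85 and 1.87 against 1.68 and 1.81, groups that lay apart by less than the test could call (0.09, SE 0.06, adjusted p = 0.142). DLEU2, with MIR15A and MIR16-1, measured 1.60 and 1.53 against 1.39 and 1.45 (0.14, SE 0.05, adjusted p = 0.0201). The SPACA6 unit, with MIR99B, MIRLET7E and MIR125A, measured 1.95 and 2.01 against 1.30 and 1.54 (0.48, SE 0.08, adjusted p = 2.59e-05). The unit with MIR181A2 and MIR181B2 measured 0.870 and 0.826 against 0.549 and 0.560 (0.61, SE 0.07, adjusted p = 1.31e-06), and the MIR10A unit over the HOXB genes fell, as given above.

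N20 signal was densest at the starts of the units matched to a gene. In the 200-base bin of the unit start, the N20 ChIP libraries averaged 12.4 and 12.5 CPM per kb over coding matches, 8.68 and 9 over long non-coding matches, 5.23 and 5.87 over units without a match and 5.59 and 6.04 over the same classes outside GENCODE. At 4 kb past the start the averages were 1.14 and 1.10 for coding matches and 0.734 and 0.835 for long non-coding ones. S2P ChIP averaged 2.94 and 5.36 at the start of coding matches and 3.75 and 6.24 at that of long non-coding ones. At 4 kb it averaged 2.45 and 2.61 over coding matches and 1.07 and 1.13 over long non-coding ones. The LYL1 unit stood apart, with 44.5 and 80.6 CPM per kb of S2P ChIP over its whole length, against medians of 0.708 and 0.790 over the 2602 units. The ChIP libraries carry no strand, so a promoter that fires in both directions counts for both of its units.

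Reads on the opposite strand were most common in asRNA. Relative to reads on both strands of the unit, they made up a median of 25% and 27% in TT-Seq and 36.2% and 36.9% in sheared total RNA for asRNA units, against 1.48% and 1.79% in TT-Seq for sincRNA units. In the BMP2K-DT unit they made up 2.96% in TT-Seq and 14% in total RNA. Other named divergent units varied widely. MAGOH-DT had 34.4% and 68.8%, EIF5-DT 12.8% and 82.6%, and HNRNPD-DT 92.6% and 96.7%, while NUP133-DT had 4.05% and 0%. Whether reads of the other strand entered the counts of such units was not tested.

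Promoter letters of the matched units were compared with those of all 27305 RefSeq promoters, over the 250 bases before the start. GGGCGG, a GC box, was found on either strand in 67.6% of the 321 coding matches, in 61.8% of the 387 long non-coding matches and in 42.3% of all promoters. TATAAA was found in 6.85% and 4.65% against 11.1%, and CCAAT in 40.8% and 30.5% against 33.0%. Median G and C content was 62.8% in coding matches, 67.2% in long non-coding ones, 70.0% in those named as divergent transcripts and 58.0% over all promoters. That background mixes gene types. Promoters of coding genes alone had GGGCGG in 56%, TATAAA in 9.23% and a median G and C content of 62.4%. Those of non-coding genes had 23.4%, 13.8% and 49.6%. Coding genes in the mRNA class had a median of 66.0% and GGGCGG in 72.6%, so the comparison with all promoters also compares genes with a unit in K562 with genes without one. Of the 708 matched units 443 started within 500 bases of the RefSeq start.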

How the data were processed

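The authors deposited counts in 15441419 bins of 200 bp (RNA stranded, ChIP unstranded) and a table of 21874 units with their class and GENCODE mark, per the file headers. The submitters' processing notes name STAR 2.3.0, Bowtie2 2.1.0, SAMtools and hg38, but not their roles; how multiply matching reads were treated is not stated there. Here, counts of bins centred in a unit were summed on its strand, 19332 units passing filterByExpr were scaled by TMM, and edgeR 4.0.16 (R 4.3.3) fitted glmQLFit (robust) with 1 mean per group over the 8 RNA libraries, with Benjamini-Hochberg adjustment at 0.05; the coefficient of variation between duplicates was 0.0547. Simulated data of the TT-Seq comparison gave 95% of 2-fold and 43% of 1.5-fold changes recovered. The simulation had a larger spread than the data and changed only 100 units per fold among 19216 tested. Those shares therefore do not give the power of the tests reported here. Genes came from RefSeq GRCh38.p14. The text names, per class, the 3 highest TT-Seq levels and, with a mean of at least 1 CPM, the 3 highest and 3 lowest called changes, and likewise over all classes in the other 3 comparisons. The levels of 1 conRNA unit that this rule names are not reported here. The members and lists were chosen with earlier results of these data known. Exon and intron tables, and rates, were not used here.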

Additional observations from a re-analysis of the deposited data

How the results depend on the processing

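Of the 77 fold changes named, recomputed under 1218 alternatives in all, 1190 kept direction and call, 14 were no longer called, 3 became called and 11 reversed. Refits without 1 library gave 608 of the 1190, so this total says little about the harder alternatives. On bins of no other unit 50 kept direction and call, 5 were no longer called, 8 reversed and the rest could not be evaluated. Without TMM scaling the reversed values were CITED2 (0.24), TOP3B (0.01) and RBMX (0.09). On bins that no other unit covers on either strand, which drop parts of a gene, they were CITED2 (2.84), EEF1A1 (3.03), NHP2 (3.08), H3-3B (0.62), SF3B5 (1.77), H3C7 (0.39) and LOC105378179 (0.98, and 0.56 in 4sU-Seq against unsheared total RNA). In 4sU-Seq against unsheared total RNA, a DESeq2 test called 636 units higher. In sheared total RNA against unsheared total RNA, 228 were higher without TMM scaling, and the lower calls were 330 with DESeq2 size factors, 387 without TMM scaling, 299 by DESeq2 and 262 with these 4 libraries alone. The remaining values are for TT-Seq against sheared total RNA. Without TMM scaling 40 eRNA units were lower, 344 sincRNA and 80 coding matches higher and 79 long non-coding matches lower, and the medians were 1.37 (eRNA), 0.47 (asRNA), 0.22 (conRNA), 0.35 (uaRNA) and 0.20 (sincRNA). With a mean of at least 1 CPM, 78 eRNA units were higher and 43 lower and 57 coding matches higher, with medians of 0.22 (eRNA), 0.18 (asRNA), -0.01 (conRNA), 0.06 (uaRNA) and -0.06 (sincRNA). On bins of a single unit 109 eRNA units and 63 coding matches were higher, with medians of 0.47 (eRNA), -0.03 (conRNA), 0.07 (uaRNA) and -0.11 (sincRNA). With no filter the medians were 1.66 (eRNA), 0.03 (uaRNA) and -0.14 (sincRNA), and sincRNA had -0.15 with DESeq2 size factors and -0.16 by DESeq2. The causes were not tested.

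Leaving out 1 library at a time gave 838 to 1002 higher and 790 to 919 lower in TT-Seq against sheared total RNA, with medians of 1.05 to 1.21 (eRNA), 0.09 to 0.17 (asRNA), -0.16 to -0.08 (conRNA), -0.02 to 0.04 (uaRNA) and -0.17 to -0.11 (sincRNA). It gave 638 (without unsheared total RNA replicate 1) to 1054 higher and 446 to 677 lower in 4sU-Seq against unsheared total RNA, and 183 (without TT-Seq replicate 1) to 333 higher and 662 to 853 lower in TT-Seq against 4sU-Seq. In sheared total RNA against unsheared total RNA it gave 132 (without unsheared total RNA replicate 1) to 408 higher and 50 (without unsheared total RNA replicate 2) to 321 (without either TT-Seq library) lower. With 2 libraries a group, fitted values of the remaining library assume that it varies like the others.

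The replicate numbers were examined as a pairing: deviations of same-numbered libraries correlated at -0.018 to 0.166 between groups. With 2 libraries a group, such correlations cannot tell whether same-numbered libraries shared a culture or batch. With the replicate number as a block, 981 units were higher and 899 lower in TT-Seq than in sheared total RNA, and no count of calls moved by over 1.5 times.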
